A study of Homo sapiens with 12 samples.

Results

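The human HOX genes were followed by RNA sequencing in LS180, an established line of human colorectal cancer cells. All 39 protein-coding genes whose symbol is HOXA, HOXB, HOXC or HOXD plus a number were taken, out of 60671 genes in the deposited count table, and antisense RNAs were left out. They comprised 11 HOXA genes, 10 HOXB genes, 9 HOXC genes and 9 HOXD genes. Derivatives of LS180 carried a doxycycline-inducible construct for V5-tagged wild-type SOX9, for a V5-tagged SOX9 mutant called M303 or for green fluorescent protein (GFP). The series' design text describes M303 as a shortened SOX9. The groups were the SOX9 line with and without doxycycline, the M303 line with and without doxycycline, and the GFP line with and without doxycycline, with 2 libraries in each and 12 in all. Induction was 0.5 µg/ml doxycycline for 24 h. Whether each line was 1 clone or a pool of cells is not given in the sources used here. The labels call the libraries of a group duplicates without naming separate cultures, so the p-values reflect the spread of these libraries alone, and that spread may be technical. The uninduced cells carried the same constructs and expressed SOX9.

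HOX proteins are homeodomain transcription factors that give cells along the head-to-tail axis their positional identity. The genes lie in 4 clusters, and the order within a cluster follows the order of their use: low-numbered paralogues act towards the head and high-numbered ones, related to the fly gene Abdominal-B, act towards the tail. Adult tissues keep part of this pattern, and the posterior genes HOXA13, HOXD13 and HOXB13 are known from the hindgut and the distal colon. Polycomb complexes hold unused HOX genes silent, Trithorax-group methyltransferases keep used ones active, and the caudal-type factors CDX1 and CDX2 act upstream of HOX genes in the developing trunk and gut.

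Totals ranged from 31012775 to 48529770 counts per library. SOX9 itself had 711.7 and 760.8 CPM (counts scaled to the library total) with doxycycline in the SOX9 line, against 357.0 and 380.7 CPM without. It had 818.4 and 867.1 CPM with doxycycline in the M303 line, against 398.8 and 366.7 CPM without, and 404.8 and 370.8 CPM with doxycycline in the GFP line, against 399.0 and 392.5 CPM without. SOX9 was thus higher with doxycycline in every library of the SOX9 and M303 lines, by a log2 fold change of 1.00 and 1.14 (adjusted p = 4.1e-08 and 2.8e-08 by edgeR's quasi-likelihood test), and its groups overlapped in the GFP line. The 10 colon epithelial markers summed to between 9376 and 11170 CPM in the 12 libraries. The 8 fibroblast markers summed to at most 2.92 CPM, the 5 blood and immune markers to at most 4.24 CPM with CD3E at 0, and the 4 endothelial markers to at most 0.460 CPM.

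The clusters lay on 4 chromosomes of hg38, by the Ensembl gene models that the file header names. HOXA lay on chromosome 7 on the minus strand, with HOXA13 at 27193503 to 27200091, and HOXB spanned chr17:48528526-48728750 on the minus strand. HOXC spanned chr12:53938831-54056030 on the plus strand and HOXD spanned chr2:176092721-176190907 on the plus strand. In each of the 4 the gene numbered 13 marked 1 end. Promoter windows of 300 bases, with 250 before and 50 after the annotated start, came from a set of RefSeq promoters on GRCh38.p14. The set used here held 27 windows for 20 of the 39 genes. It held none for the expressed genes HOXA5, HOXB7 and HOXB13, so these were not searched. The windows of 3 strongly expressed HOXA genes are shown beside those of 2 HOXD genes with no count in any library. This choice was made because paralogues 11 and 13 occur in both clusters. Sequences run 5′ to 3′ on the gene's own strand, and capitals mark the dinucleotide CG.
HOXA9, chr7:27165488-27165787, minus strand: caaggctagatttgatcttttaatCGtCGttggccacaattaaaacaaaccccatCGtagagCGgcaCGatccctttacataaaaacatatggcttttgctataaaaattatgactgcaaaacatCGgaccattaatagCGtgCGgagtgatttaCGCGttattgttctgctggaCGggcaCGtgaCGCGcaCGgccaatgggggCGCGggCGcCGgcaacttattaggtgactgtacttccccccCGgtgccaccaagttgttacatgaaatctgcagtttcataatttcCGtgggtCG
HOXA11, chr7:27185183-27185482, minus strand: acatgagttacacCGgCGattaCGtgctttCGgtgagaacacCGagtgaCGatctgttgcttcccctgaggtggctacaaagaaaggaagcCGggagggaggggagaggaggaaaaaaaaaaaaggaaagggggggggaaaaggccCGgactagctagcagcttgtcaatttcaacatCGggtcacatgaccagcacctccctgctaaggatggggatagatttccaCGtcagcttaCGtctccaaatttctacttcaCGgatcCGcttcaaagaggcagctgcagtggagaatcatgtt
HOXA13, chr7:27200042-27200341, minus strand: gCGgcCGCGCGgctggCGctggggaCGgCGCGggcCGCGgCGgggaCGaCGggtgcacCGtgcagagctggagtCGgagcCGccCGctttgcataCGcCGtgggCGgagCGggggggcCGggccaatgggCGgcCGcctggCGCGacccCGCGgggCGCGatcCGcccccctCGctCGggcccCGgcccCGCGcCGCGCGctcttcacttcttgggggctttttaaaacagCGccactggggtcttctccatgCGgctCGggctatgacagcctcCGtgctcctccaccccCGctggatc
HOXD11, chr2:176107030-176107329, plus strand: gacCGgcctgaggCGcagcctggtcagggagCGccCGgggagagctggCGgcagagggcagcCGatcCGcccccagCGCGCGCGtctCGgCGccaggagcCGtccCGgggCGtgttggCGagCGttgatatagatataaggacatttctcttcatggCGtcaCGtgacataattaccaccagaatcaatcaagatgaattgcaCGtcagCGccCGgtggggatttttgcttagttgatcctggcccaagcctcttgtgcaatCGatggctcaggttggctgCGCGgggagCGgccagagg
HOXD13, chr2:176092471-176092770, plus strand: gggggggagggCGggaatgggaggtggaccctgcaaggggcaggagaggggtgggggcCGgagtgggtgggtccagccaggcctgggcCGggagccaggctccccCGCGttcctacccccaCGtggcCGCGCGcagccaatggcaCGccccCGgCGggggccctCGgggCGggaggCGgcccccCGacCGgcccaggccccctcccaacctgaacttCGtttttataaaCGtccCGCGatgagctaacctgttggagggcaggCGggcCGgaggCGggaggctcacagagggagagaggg
The window of HOXA13 held 44 CG, a number reached by 4.19% of the 35116 promoter windows in the table, whose median was 14. The window of HOXA9 held 22 CG and that of HOXA11 held 13. The silent HOXD11 and HOXD13 held 27 and 24, so the number of CG did not separate these expressed genes from these silent ones. Both strands were searched for AACAAT, a core that SOX proteins bind, and for TTTATG, a core that caudal-type and posterior HOX proteins bind. The 27 HOX windows are not all separate: HOXC4 and HOXC5 have the same window, and several are alternative starts of HOXA3. AACAAT was present in 1 of the 27 HOX windows, that of HOXA9, and in 10.12% of all windows. TTTATG was present in 3 of the 27, those of HOXA3, HOXA9 and HOXD8, and in 10.58% of all windows. Such matches are a description of letters and not of binding.

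LS180 expressed the HOXA and HOXB clusters and next to nothing of HOXC and HOXD. Over the 12 libraries the HOXA genes collected 61978 counts, the HOXB genes 14748, the HOXC genes 178 and the HOXD genes 6. In the 6 uninduced libraries, 12 of the 39 genes averaged 1 CPM or more: HOXA3, HOXA5, HOXA6, HOXA7, HOXA9, HOXA10, HOXA11 and HOXA13 in HOXA, and HOXB3, HOXB6, HOXB7 and HOXB13 in HOXB. A further 17 genes had counts but lay below 1 CPM, and 10 had no count in any library. These 10 were HOXB1, HOXC5, HOXC11, HOXD1, HOXD3, HOXD4, HOXD9, HOXD11, HOXD12 and HOXD13. A count of 0 still allows up to 3 counts per library, which is 0.0609 to 0.0986 CPM here. This limit takes counts as independent, and it is too low where both mates of a fragment were counted. For levels between genes, CPM was divided by the exonic length in kilobases to give RPKM. On that scale HOXA made up 72.8% of all HOX expression in the uninduced libraries, HOXB 26.9%, HOXC 0.308% and HOXD 0.00658%.

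**Figure D1:**
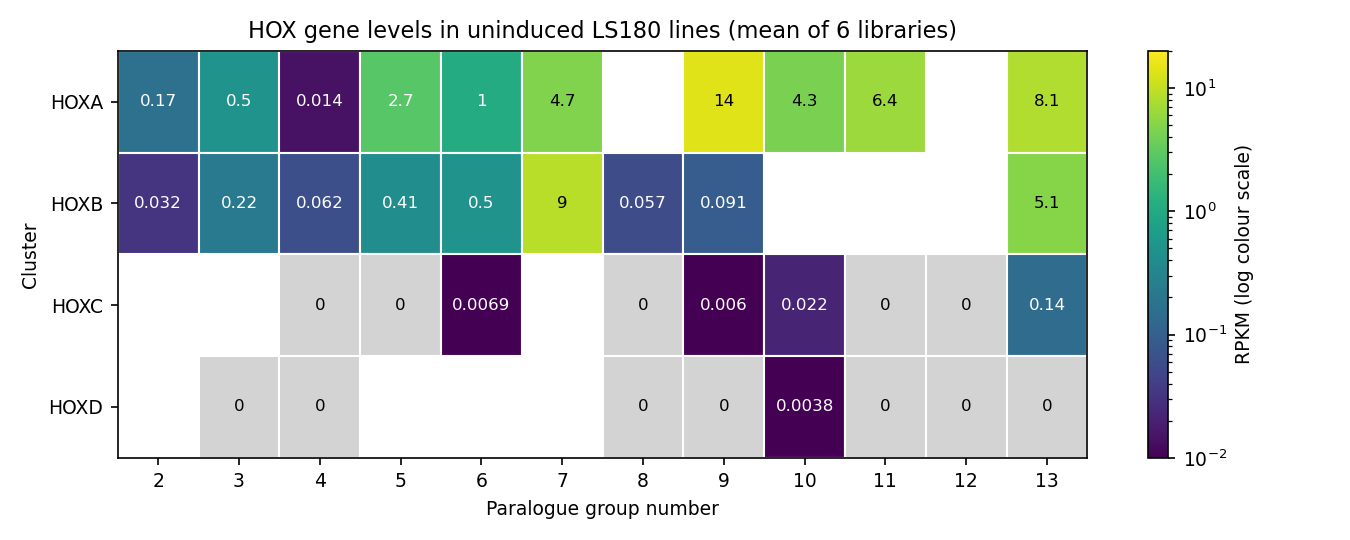
Mean RPKM of each HOX gene over the 6 uninduced libraries, by cluster (rows) and paralogue group number from 2 to 13 (columns), on a log colour scale. Grey cells are genes with no count in these 6 libraries, white cells are positions with no gene, and the filled cells with values above 4 lie at HOXA7, HOXA9, HOXA10, HOXA11, HOXA13, HOXB7 and HOXB13.

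Expression in HOXA was concentrated at its posterior end. The 4 posterior genes, numbered 9 and above, held 78.0% of the cluster's RPKM, the 4 central genes 20.3% and the 3 anterior genes 1.71%. HOXA9, a posterior gene known for its part in blood progenitors and leukaemia, was the most expressed HOX gene, with 13.7 ± 0.51 RPKM (SD, n = 6 uninduced libraries), above 80.6% of all tested genes. HOXA13, which patterns the hindgut, the urogenital tract and the digits, had 8.12 ± 0.52 RPKM, and HOXA11, a gene of limb and uterine development, had 6.40 ± 0.73 RPKM. HOXA10, which also acts in the uterus, had 4.28 ± 0.28 RPKM. The central HOXA7 had 4.72 ± 0.70 RPKM, and HOXA5, known in lung and gut development, had 2.68 ± 0.45 RPKM. HOXA6 had 1.05 ± 0.26 RPKM and HOXA3, a gene of pharyngeal development, 0.495 ± 0.10 RPKM. HOXA2, which patterns the face and hindbrain, reached 0.167 RPKM and HOXA4 0.0142 RPKM. Across the 11 HOXA genes the rank correlation of RPKM with paralogue number was 0.864, as a description of genes measured in the same libraries, with HOXA4 below both of its neighbours and HOXA9 above every higher-numbered gene.

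HOXB showed no such simple gradient. HOXB7, a central gene, had 8.96 ± 0.42 RPKM (SD, n = 6) and HOXB13, known from the prostate and the hindgut, had 5.07 ± 0.68 RPKM. The genes next to HOXB7 were close to silent: HOXB8 had 0.0565 RPKM and HOXB9 had 0.0910 RPKM, while HOXB6 had 0.502 RPKM and HOXB5 0.413 RPKM. HOXB3 had 0.219 RPKM, HOXB4 0.0618 RPKM and HOXB2 0.0324 RPKM, and HOXB1 had no count. Central genes held 64.9% of HOXB RPKM, the 2 posterior genes 33.5% and the anterior genes 1.63%, and the rank correlation with paralogue number was 0.588 over 10 genes. The gene model of HOXB7 ran from 48607232 to 48633572 on chromosome 17 and so enclosed HOXB8 and HOXB9, but it shared no exonic base with either.

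In HOXC and HOXD the few counts sat in a handful of genes. HOXC13, which acts in hair and nail formation, had 138 of the 178 HOXC counts and was the only gene of these clusters that passed the filter for testing. It had 4 and 14 counts in the SOX9 line with doxycycline and 12 and 9 without, 7 and 22 in the M303 line with doxycycline and 22 and 10 without, and 12 and 10 in the GFP line with doxycycline and 12 and 4 without. HOXC10 followed with 22 counts in 7 libraries. It had 1 and 3 counts in the SOX9 line with doxycycline and 2 and 2 without, 7 and 0 in the M303 line with doxycycline and 3 and 4 without, and none in the 4 GFP libraries. The others had fewer counts over all libraries, HOXC6 with 8, HOXC4 with 4, and HOXC8, HOXC9 and HOXC12 with 2 each. HOXD10 had 4 counts in 2 libraries of the SOX9 line, 1 induced and 1 not, and HOXD8 had 2 counts in 1 GFP library. HOXD13, a digit and hindgut gene and the paralogue of HOXA13, HOXB13 and HOXC13, stayed without a count.

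In paralogue groups 9 to 11 a single gene carried nearly all expression. HOXA9 made up 99.3% of RPKM in group 9, HOXA10 99.4% in group 10 and HOXA11 all of group 11. Group 13 was shared, with 60.9% from HOXA13 and nearly all of the rest from HOXB13. So was group 7, by full exonic length with 65.5% from HOXB7 and the rest from HOXA7. Group 3, with 69.3% from HOXA3, and group 6, with 67.3% from HOXA6, were shared to a like degree at lower levels. Group 12, which has members in HOXC and HOXD alone, had no count in the uninduced libraries. In the order of RPKM, HOXA9 stood clear of the next gene by more than 1 SD of either. The 1 SD ranges of HOXB7 and HOXA13 overlapped, as did those of HOXA11 and HOXB13 and those of HOXB13, HOXA7 and HOXA10. The 5 highest genes held 73.8% of all HOX RPKM.

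Part of this order depended on how much of each gene model could be counted. Of the 39 genes, 25 shared exonic bases with another gene, mostly an antisense RNA, and the recorded command did not count reads that fell on 2 genes. HOXA7 shared 1507 of its 2411 exonic bases with HOXA-AS3 on the opposite strand, or 62.5%. HOXA6 shared 40.1% of its exonic bases, HOXA11 27.2% (with HOXA11-AS) and HOXA10 26.2%. Of the 3033 exonic bases of HOXA9, 2214 were unshared, and 422 of the others overlapped HOXA10-AS, while HOXA5, HOXB7 and HOXB13 shared none with any gene. Per kilobase of unshared exon HOXA9 had 18.8 RPKM and remained the highest HOX gene. HOXA7 had 12.6 RPKM on that scale, against 4.72 by the full length, and moved to rank 2 in its cluster from rank 4. It then lay above HOXB7, with 8.97 RPKM, so the order within paralogue group 7 was turned round. HOXA13 had 8.26 RPKM and HOXA11 8.79 RPKM per unshared kilobase, so their order was turned round. On the unshared scale HOXA held 78.9% of HOX RPKM and HOXB 20.8%. The shares by position and by paralogue group given above use the full length. The counting did not use strand, so antisense reads beyond the annotated overlaps cannot be told apart from those of the gene.

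**Figure D2:**
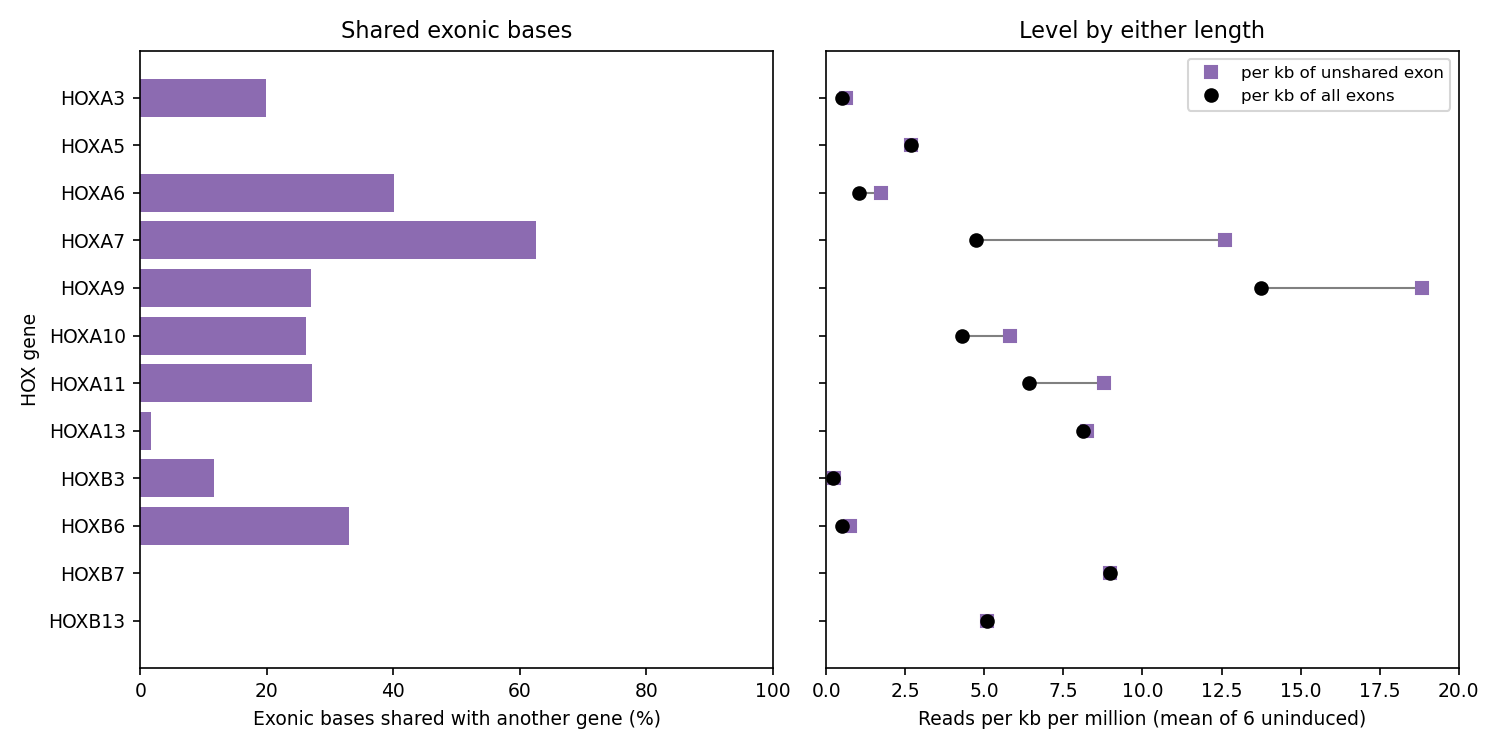
Left, percent of exonic bases shared with another annotated gene for the 12 HOX genes at 1 CPM or more. Right, mean RPKM over the 6 uninduced libraries, per kilobase of unshared exon (squares) and of all exons (circles). HOXA7, with 62.5% shared, moves farthest, and HOXB7 and HOXB13, with none shared, do not move.

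Before induction no HOX gene differed between the lines past the threshold. Between the uninduced SOX9 line and the uninduced GFP line, edgeR's quasi-likelihood test called 0 of 17 HOX genes at an adjusted p under 0.05, and 0.0% of all 18219 genes tested. At an unadjusted p under 0.05 it had 0 HOX genes and 866 genes in all, and DESeq2 called 0 HOX genes and 2 genes in all (0.00606%). For the uninduced M303 line against the uninduced GFP line the call was 0 of 17 HOX genes beside 0.00549% of all genes. At an unadjusted p under 0.05 there was 1 HOX gene of 1110 genes, and DESeq2 called 0 HOX genes and 1 gene in all (0.00303%). By DESeq2 0 HOX genes had an unadjusted p under 0.05. The 1 HOX gene by edgeR was HOXA7, with 8.33 and 11.3 CPM in the M303 line and 13.48 and 11.96 CPM in the GFP line. All M303 values of HOXA7 lay below its GFP values. Its log2 fold change was -0.37 (SE 0.17, adjusted p = 0.799 by edgeR). Over all 6 groups, induced ones included, the ratio of the highest to the lowest group mean ran from 1.12, for HOXA11, to 1.84, for HOXA3. This covers the 12 genes at 1 CPM or more. For HOXA3 the highest mean was that of the induced SOX9 line and the lowest that of the uninduced M303 line. Its uninduced means were 2.26, 1.79 and 2.35 CPM in the SOX9, M303 and GFP lines.

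Induction of wild-type SOX9 raised or lowered no HOX gene past the threshold. Of the 39 genes, 17 passed the filter on low counts (9 HOXA, 7 HOXB and HOXC13), and the other 22 had at most 16 counts in any library. edgeR called 0 of the 17, beside 2.97% of all genes, 1.81% higher and 1.16% lower. At an unadjusted p under 0.05 there were 2 HOX genes, HOXA9 and HOXB9, out of 2520 genes in all. DESeq2 called 1 of 13 HOX genes that it tested, HOXA9, beside 757 of 14452 genes in all (5.24%). The split of calls over all genes moved with the setting, with 394 higher and 363 lower by DESeq2, and 252 higher and 275 lower by edgeR without uninduced SOX9 replicate 1. The log2 fold change was positive for 14 of the 17 HOX genes and had a median of 0.23. Over all genes tested 50.9% were positive, with a median of 0.0059. The HOX genes were measured in the same libraries, so their signs are not independent.

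HOXA9 came closest to a call. It had 52.9 and 50.7 CPM in the SOX9 line with doxycycline, against 41.0 and 40.6 CPM without. It had 48.2 and 43.5 CPM in the M303 line with doxycycline, against 42.8 and 41.0 CPM without, and 38.8 and 46.0 CPM in the GFP line with doxycycline, against 44.3 and 40.4 CPM without. Both SOX9-induced libraries were thus above all 10 others, the M303-induced libraries lay above their uninduced partners by a small margin, and the GFP groups overlapped. The log2 fold change with SOX9 induction was 0.35 (SE 0.099, 95% interval 0.14 to 0.55, adjusted p = 0.0667 by edgeR over all genes). With M303 induction it was 0.13 (95% interval -0.078 to 0.34) and with GFP induction 0.0029 (95% interval -0.21 to 0.21). The difference between the SOX9 and GFP responses was 0.34 (SE 0.14, adjusted p = 0.451 by edgeR), and that between the SOX9 and M303 responses was 0.22 (SE 0.14, adjusted p = 0.855). The adjusted p for SOX9 induction fell under 0.05 in 4 of 17 alternative settings: with DESeq2 (0.0421), without the filter on low counts (0.0468), and without induced GFP replicate 1 (0.0393) or 2 (0.0394). It ranged from 0.0393 to 0.403 over these alternatives, with a log2 fold change between 0.31 and 0.37.

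The other posterior HOXA genes did not pass the test, and their estimates lay near 0. HOXA13 had 41.8 and 45.5 CPM in the SOX9 line with doxycycline, against 42.6 and 44.2 CPM without. It had 44.9 and 41.8 CPM in the M303 line with doxycycline, against 37.1 and 39.3 CPM without, and 37.0 and 39.9 CPM in the GFP line with doxycycline, against 40.9 and 43.0 CPM without. Its groups overlapped in the SOX9 line, with a log2 fold change of 0.0051 and a 95% interval of -0.19 to 0.20, and did not overlap in the other two lines, where it was 0.18 with M303 and -0.13 with GFP (adjusted p = 0.9998 and 0.9995 by edgeR). HOXA10 had 19.2 and 14.9 CPM with SOX9 induction and 17.7 and 16.2 CPM without, a log2 fold change of 0.012. HOXA11 had 15.5 and 16.1 CPM with SOX9 induction and 17.0 and 18.4 CPM without, a log2 fold change of -0.16 (SE 0.15). Among the tested posterior HOXA genes only HOXA9 thus had an interval for SOX9 induction that left out 0.

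The tested central and anterior HOXA genes had positive estimates with SOX9 induction, and all of their intervals included 0. HOXA5, which in colon cancer cells is known to oppose stem cell traits, had 6.13 and 6.03 CPM with SOX9 induction, against 5.11 and 4.25 CPM without. It had 6.48 and 4.66 CPM with M303 induction, against 5.72 and 4.53 CPM without, and 4.31 and 4.47 CPM with GFP induction, against 4.604 and 3.413 CPM without. The groups were separate in the SOX9 line and overlapped in the M303 and GFP lines, and the log2 fold change of 0.38 with SOX9 had an interval of -0.11 to 0.86. HOXA3 had 3.94 and 2.67 CPM with SOX9 induction, against 1.95 and 2.56 CPM without, and 3.03 and 2.39 CPM with M303 induction, against 1.53 and 2.05 CPM without. With GFP induction it had 2.17 and 2.90 CPM, against 1.97 and 2.72 CPM without. The groups were separate in the SOX9 and M303 lines and overlapped in the GFP line. Its log2 fold changes were 0.56 (SE 0.32) with SOX9, 0.59 (SE 0.33) with M303 and 0.10 (SE 0.33) with GFP, none of which passed the test. HOXA2 lay below 1 CPM in 11 of the 12 libraries and had 0.649 and 0.691 CPM with SOX9 induction, against 0.375 and 0.225 CPM without. It had 1.04 and 0.632 CPM with M303 induction, against 0.451 and 0.586 CPM without, and 0.159 and 0.496 CPM with GFP induction, against 0.526 and 0.167 CPM without. The SOX9 and M303 groups were separate and the GFP groups overlapped, but the log2 fold changes of 1.146 (SE 0.76) with SOX9 and 0.69 (SE 0.73) with M303 did not pass the test (adjusted p = 0.573 and 0.9998 by edgeR). HOXA7 had a log2 fold change of 0.076 (SE 0.17) with SOX9 and HOXA6 one of 0.23 (SE 0.46). In the same order they had 0.14 and 0.18 with M303, and -0.12 and -0.48 with GFP.

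**Figure D3:**
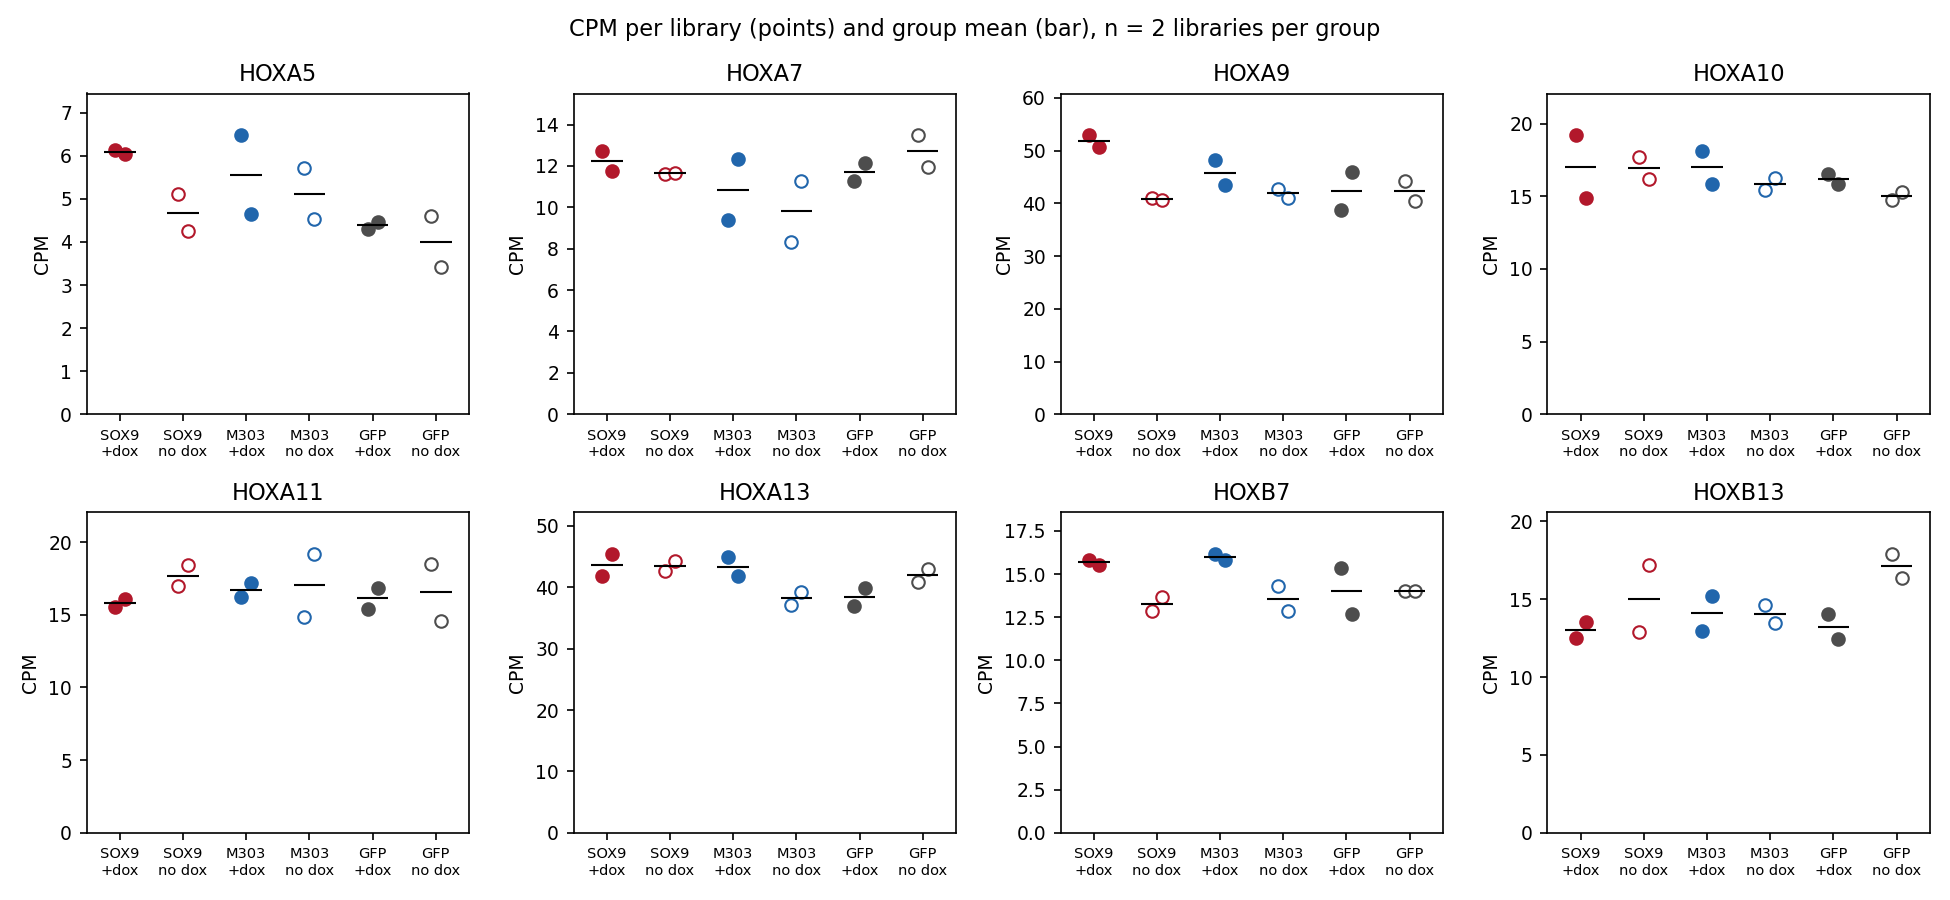
CPM per library (points) and group mean (bars), 2 libraries per group, for 8 HOX genes, with the induced group left of its uninduced group in each line. The SOX9-induced HOXA9 libraries, at 52.9 and 50.7 CPM, lie above the other 10, whereas the SOX9-line groups of HOXA10 and HOXA13 overlap.

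In HOXB the main genes again did not pass the test. HOXB7 had 15.8 and 15.5 CPM with SOX9 induction, against 12.9 and 13.7 CPM without, and 16.2 and 15.8 CPM with M303 induction, against 14.3 and 12.9 CPM without. With GFP induction it had 15.3 and 12.7 CPM, against 14.04 CPM in both uninduced libraries. Induced libraries were higher than uninduced ones in the SOX9 and M303 lines, with log2 fold changes of 0.24 (SE 0.14) in each, while the GFP libraries straddled their controls. HOXB13 had 12.52 and 13.51 CPM with SOX9 induction, against 12.9 and 17.2 CPM without, 12.95 and 15.23 CPM with M303 induction, against 14.62 and 13.49 CPM without, and 14.04 and 12.43 CPM with GFP induction, against 17.9 and 16.3 CPM without. It was separate only between the GFP groups, where the log2 fold change was -0.37 (SE 0.15, adjusted p = 0.9995 by edgeR). HOXB9 had 16 and 28 counts with SOX9 induction, against 6 and 0 without, and 8 and 6 counts with M303 induction, against 14 and 12 without. With GFP induction it had 12 and 2 counts, against 2 and 16 without. Its log2 fold change of 2.82 with SOX9 (95% interval 0.22 to 5.42, adjusted p = 0.311 by edgeR) rested on few counts. It was 1.87 without uninduced SOX9 replicate 2, and without uninduced SOX9 replicate 1 no fold can be given, since the remaining uninduced library has 0 counts.

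M303 and GFP induction also left the HOX genes uncalled. With M303, edgeR called 0 of 17 HOX genes, beside 0.00549% of all genes, which was SOX9 alone. At an unadjusted p under 0.05 it had 0 HOX genes of 662 genes, and DESeq2 called 0 HOX genes and 2 genes in all (0.00606%). The log2 fold change was positive for 14 of 17 HOX genes, with a median of 0.14, beside 50.2% and 0.00075 over all genes. With GFP, edgeR called 0 of 17 HOX genes and 0.0% of all genes, had 1 HOX gene (HOXB13) of 580 genes at an unadjusted p under 0.05, and DESeq2 called 0 HOX genes and 2 genes in all (0.00606%). There the log2 fold change was positive for 5 and negative for 12 of 17 HOX genes, with a median of -0.093, beside 50.1% positive and 0.00049 over all genes. The test of SOX9 against M303 responses called 0 HOX genes beside 0.489% of all genes, 0.357% with the higher response to SOX9. That of SOX9 against GFP responses called 0 beside 0.895%, 0.631% with the higher response to SOX9. At an unadjusted p under 0.05 these had 1 HOX gene each, HOXB9 and HOXA9, and DESeq2 called 0 HOX genes in both, beside 0.9% of all genes against M303 and 1.53% against GFP. The difference between the SOX9 and M303 responses was positive for 8 and negative for 9 of 17 HOX genes, with a median of -0.034. Over all genes 49.95% were positive. The difference between the SOX9 and GFP responses was positive for 14 of 17 HOX genes, with a median of 0.29, beside 49.32% of all genes. These last comparisons share the SOX9-line libraries.

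Summed over all 39 genes, HOX expression was 188.5 and 184.6 CPM with SOX9 induction, against 168.5 and 175.3 CPM without. It was 184.5 and 176.1 CPM with M303 induction, against 162.0 and 167.2 CPM without, and 160.0 and 168.9 CPM with GFP induction, against 176.7 and 168.6 CPM without. The sums were higher in both induced libraries of the SOX9 line and of the M303 line and overlapped in the GFP line. In the SOX9 line most of this difference lay in HOXA, with 154.9 and 149.6 CPM induced, against 138.6 and 139.6 CPM uninduced. Within HOXA it lay mostly in HOXA9, which averaged 51.8 CPM induced, against 40.8 CPM uninduced. HOXA10, HOXA11 and HOXA13 averaged 17.04, 15.79 and 43.62 CPM induced, against 16.95, 17.68 and 43.43 CPM uninduced. HOXB had 33.4 and 34.3 CPM induced, against 29.4 and 35.3 CPM uninduced, so its groups overlapped. In the M303 line HOXA had 149.3 and 139.4 CPM induced, against 128.2 and 135.2 CPM uninduced. HOXB there had 34.8 and 36.0 CPM induced, against 32.9 and 31.6 CPM uninduced. In that line HOXA13 averaged 43.35 CPM induced, against 38.18 CPM uninduced, and HOXA9 45.83 CPM, against 41.9 CPM. How far the data limit a change can be read from the intervals: of the 12 genes with a mean of 1 CPM or more, the 95% interval of the log2 fold change stayed within -1 and 1 for 9 with SOX9 induction, 9 with M303 induction and 10 with GFP induction. It was narrowest for HOXA13 and reached 0.95 on either side for HOXA6. The 22 untested genes give no such limit.

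**Figure D4:**
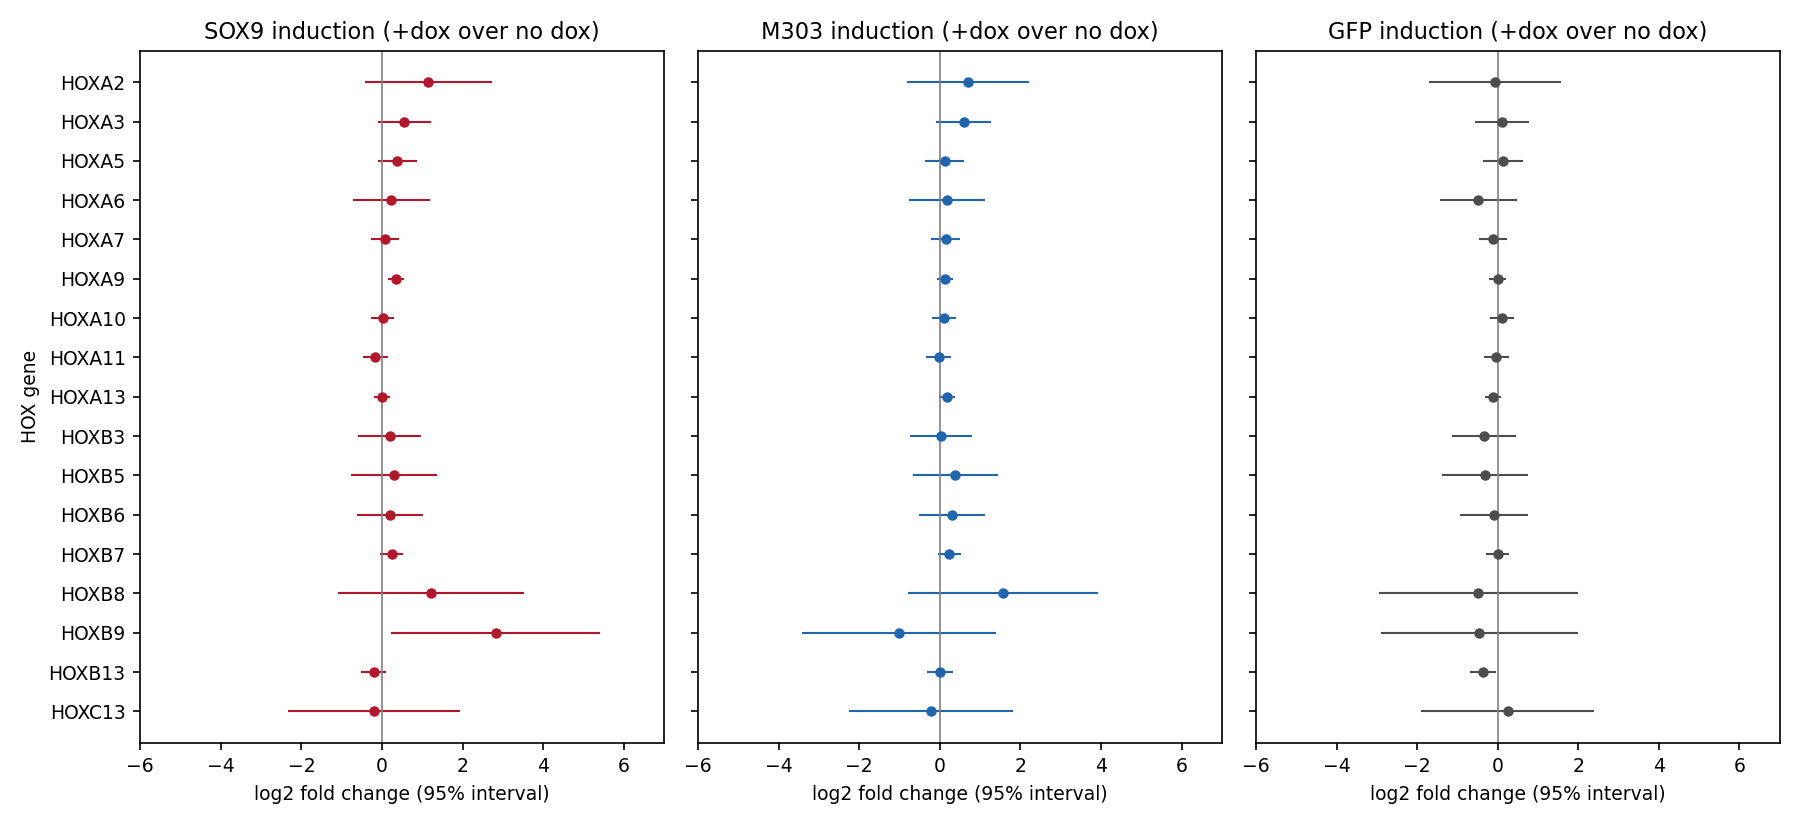
Log2 fold change (doxycycline over no doxycycline, points) with its 95% interval (lines) for the 17 tested HOX genes, with SOX9, M303 and GFP induction from left to right. The intervals of HOXA9 and HOXB9 with SOX9 and of HOXB13 with GFP leave out 0, and none of the 17 genes passed an adjusted p of 0.05 in any panel.

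Among regulators known to act upstream of HOX genes, CDX1 and CDX2 were called lower with SOX9 induction. Of the 6 CDX and ParaHox genes, 3 were tested (CDX1, CDX2 and PDX1), and 2 fell with SOX9 induction, beside 1.16% of all genes. CDX1 had 163.0 and 170.2 CPM with SOX9 induction, against 215.1 and 271.6 CPM without, and CDX2 had 124.5 and 131.7 CPM, against 158.6 and 193.8 CPM without. All induced libraries lay below the uninduced ones. With M303 induction CDX1 had 218.4 and 251.1 CPM, against 257.5 and 229.5 CPM without, and CDX2 had 177.5 and 194.0 CPM, against 200.6 and 184.9 CPM without. With GFP induction CDX1 had 268.6 and 217.9 CPM, against 261.5 and 238.0 CPM without, and CDX2 had 199.9 and 185.2 CPM, against 211.4 and 202.5 CPM without. These groups overlapped for both genes in the M303 line and for CDX1 in the GFP line. For CDX2 the GFP groups were separate, with both induced libraries below the uninduced ones. CDX1 fell by 0.55 on the log2 scale (SE 0.11, adjusted p = 0.0127 by edgeR) and CDX2 fell by 0.46 (SE 0.089, adjusted p = 0.00418). With M303 induction both were at -0.053, and the tests of SOX9 against M303 responses gave adjusted p = 0.415 for CDX1 and 0.301 for CDX2 by edgeR, so a difference between the constructs was not called. The tests of SOX9 against GFP responses called neither gene. Both calls with SOX9 induction rest on the SOX9-line duplicates. Without uninduced SOX9 replicate 2 the adjusted p was 0.141 for CDX1 and 0.111 for CDX2, without induced replicate 1 it was 0.110 and 0.0777 in the same order, and without induced replicate 2 it was 0.0647 for CDX1.

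The chromatin regulators of HOX clusters were nearly all uncalled with SOX9 induction, as were genes in general, with 2.97% of all tested genes called. Of 28 Polycomb genes, all expressed, 1 rose and none fell, beside 1.81% of all genes higher and 1.16% lower. The median log2 fold change of the 28 was 0.063, beside 0.0059 over all genes. The gene was RNF2, which encodes the catalytic ubiquitin ligase of Polycomb repressive complex 1, with 36.9 and 37.9 CPM induced, against 29.1 and 26.6 CPM uninduced. It rose by 0.42 on the log2 scale (SE 0.10, adjusted p = 0.0214 by edgeR), and the call was lost without uninduced SOX9 replicate 2 (0.246) or without induced SOX9 replicate 1 (0.151) or 2 (0.248). The tests of SOX9 against M303 responses and of SOX9 against GFP responses called 0 Polycomb genes. EZH2, the histone methyltransferase of Polycomb repressive complex 2, had a log2 fold change of 0.089 (SE 0.095) with SOX9 induction. Of 15 Trithorax-group and H3K27 demethylase genes, all tested, 0 were called, with a median of 0.035. Of 17 retinoic acid pathway genes, 9 were tested and 0 called, with a median of -0.084.

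HOX cofactors and the surroundings of the clusters gave no calls with SOX9 induction, beside 2.97% of all genes called. The 9 cofactor genes of the TALE class, whose proteins bind DNA together with HOX proteins, had 6 tested members and 0 calls, with a median of 0.055. MEIS1, 1 of the 6, had 3.67 and 4.05 CPM with SOX9 induction, against 2.44 and 2.22 CPM without. The induced libraries were higher, by 0.73 on the log2 scale (SE 0.29), and the gene did not pass the test (adjusted p = 0.244 by edgeR). Of 18 noncoding genes within the clusters, 7 were tested and 0 called, with a median of 0.12. Of 18 genes flanking the clusters, 16 were tested and 0 called, with a median of -0.0038. In each of these lists 0 genes were called with M303 or GFP induction, beside 0.00549% and 0.0% of all genes. Among the 10 colon epithelial markers 5 fell with SOX9 induction (MUC2, KRT20, CDX2, TFF3 and VIL1), beside 1.16% of all genes. The sum of the 10 markers was 9376 and 9385 CPM induced, against 9767 and 11120 CPM uninduced. The largest terms of this sum were KRT8 and KRT18, neither of them called. KRT8 averaged 5359 CPM induced, against 5996 CPM uninduced, and KRT18 1588 CPM, against 1756 CPM. The part of these markers in the HOX values was not tested.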

How the data were processed

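The deposited values are raw counts of reads for each gene. Alignment with STAR 2.7.0a to hg38 and counting with featureCounts are named in the submitters' processing notes. Per the file headers, featureCounts 2.0.1 was run with Ensembl release 101 and no paired-end, strand, multi-mapping or overlap option. Each mate was therefore counted, strand was ignored, and reads that map to several places or cover 2 genes were left out. Counting error is thus larger than the totals imply. Libraries were 150-bp pairs from oligo(dT)-captured RNA. The members and the gene lists were chosen with earlier results of these data known.

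All 12 libraries entered 1 edgeR 4.0.16 model (R 4.3.3, robust quasi-likelihood F-test) with 1 mean per group, TMM factors (0.981 to 1.02) and filterByExpr, which left 18219 genes. P-values were adjusted by Benjamini-Hochberg over all of these, and genes under 0.05 were called. The biological coefficient of variation was 10.6%. CPM used TMM-scaled totals. RPKM divided CPM by the deposited exonic length or by its unshared part. Genes given by library were the 2 with the highest RPKM in each cluster, any called member, SOX9, CDX1 and CDX2, and called genes of other lists. Other members shown by library were chosen after their values were seen. Alternatives were DESeq2 1.42.0, other scaling, no filter, a replicate block, only the compared groups, and each library left out in turn. The values of 1 member are not reported here. Duplicates differed by more than counting noise in every group.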

Additional observations from a re-analysis of the deposited data

How the results depend on the processing

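Of 357 alternatives for single genes, 326 kept the sign and the side of the threshold, 8 lost a call, 4 gained one, and in 19 an estimate that was not called changed sign. With single libraries left out, the log2 fold change with SOX9 induction ranged from -0.064 to 0.058 for HOXA13, -0.41 to 0.012 for HOXB13 and -1.79 to 0.60 for HOXC13, and with GFP induction from -0.12 to 0.12 for HOXA9 and -2.16 to 1.46 for HOXB9. The number of HOX genes called stayed at 0 for the M303 and GFP inductions and for the other 4 comparisons in every alternative run; for SOX9 induction it was 1 (HOXA9) with DESeq2 and without the filter, and 0 to 1 when single libraries were left out. The cause was not tested. Calls over all genes moved more. DESeq2 gave 2 genes for M303 induction, 2 for GFP induction and 2 for the uninduced SOX9 line against the GFP line. Without the filter these were 9, 4 and 17, with 22 for the uninduced M303 line, 147 for SOX9 against M303 responses and 270 for SOX9 against GFP responses. Fits of the compared groups alone gave 3 for M303 induction and 1 for the uninduced SOX9 line. With single libraries left out, counts ranged from 231 to 675 for SOX9 induction (301 without uninduced SOX9 replicate 2, 270 without induced replicate 1, 231 without induced replicate 2), 1 to 2 for M303 induction, 0 to 9 for GFP induction, 57 to 107 for SOX9 against M303 responses and 95 to 229 for SOX9 against GFP responses. They ranged from 0 to 39 for the uninduced SOX9 line and 0 to 56 for the uninduced M303 line, with both maxima reached without uninduced GFP replicate 1. In these fits the lone library of a group is assumed to vary like the other groups. HOXA9 had 18.8 RPKM per unshared kilobase, against 13.7. With a threshold of 0.5 or 2 CPM, 13 or 9 HOX genes were counted as expressed in place of 12.

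No pairing by replicate number was seen: deviations of same-numbered libraries correlated at -0.079 to 0.052 over 15 pairs of groups. All tested genes entered with equal weight, low-count ones included, so a weak pairing could be missed. A replicate block gave 452 genes for SOX9 induction, in place of 541, 0 HOX genes, and an adjusted p of 0.0998 for HOXA9 by edgeR. Depth limits HOXC and HOXD, where most genes had at most a few counts.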

Other observations

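A noncoding gene inside the HOXC cluster had a higher level than the protein-coding genes around it. HOTAIR, a long noncoding RNA, averaged 3.12 CPM and 1.20 RPKM in the uninduced libraries and lay between 2.15 and 5.31 CPM in all 12. HOXC11 had no count and HOXC12 had 2 counts over the same libraries, so HOTAIR exceeded every HOXC coding gene on the RPKM scale, HOXC13 with 0.142 RPKM included. HOTAIR had 4.14 and 5.31 CPM with SOX9 induction, against 4.04 and 2.48 CPM without, which is 0.53 on the log2 scale (SE 0.30, adjusted p = 0.462 by edgeR). At the posterior end of HOXA, HOTTIP had 1.55 RPKM and HOXA11-AS 1.76 RPKM in the uninduced libraries, below HOXA13 with 8.12 RPKM and HOXA11 with 6.40 RPKM, and their log2 fold changes with SOX9 induction were 0.12 (SE 0.16) and -0.12 (SE 0.23).

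PRAC1 and PRAC2, which lie next to HOXB13 and are known from the prostate and the distal colon, were lower than HOXB13. PRAC1 had 4 counts in 1 uninduced GFP library and none in the other 11. PRAC2 had 0.603 ± 0.34 RPKM (SD, n = 6) in the uninduced libraries, below HOXB13 with 5.07 RPKM. Its 1 SD range overlapped that of HOXB6, with 0.502 ± 0.087 RPKM, or 0.749 RPKM per unshared kilobase.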
